A study of Bos taurus with 12 samples.

Results

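The family of microRNAs (miRNAs) made up of miR-15, miR-16, miR-195, miR-497, miR-424 and miR-503 was described in mammary gland tissue of 12 Chinese Holstein cows. Members were taken by name, as every entry of the deposited miRNA table named bta-miR-15, bta-miR-16, bta-miR-195, bta-miR-424, bta-miR-497 or bta-miR-503 with any letter or arm suffix. The rule found 8 of the 388 mature miRNAs of the table, which were bta-miR-15a, bta-miR-15b, bta-miR-16a, bta-miR-16b, bta-miR-195, bta-miR-497, bta-miR-503-5p and bta-miR-503-3p. miR-424 was not analysed here. Each of the 8 is listed with a single precursor.

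The cows fell into 4 groups of 3 libraries each, and each library came from a different cow. HP cows had a high and LP cows a low milk protein percentage, and both were biopsied while lactating. HD cows had a high and LD cows a low milk protein percentage, and both were biopsied in the non-lactating period. All groups share breed and tissue, and the labels name no treatment, so the study compared cows that differ in phenotype and stage. Each direction given here follows the group names of the deposited table and its labels. No measured value checks the phenotype of a library, and the sources used here do not settle which group of a pair is the high one beyond these names, so the sign of every HP vs. LP and HD vs. LD difference is uncertain.

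miRNAs are short RNAs that pair with messenger RNAs, mostly through their seed near the 5′ end, and lower the output of those messages. Members of this family share a seed or a closely related seed, and are known for acting on regulators of the cell cycle and of cell survival, among them cyclins and BCL2. Most are processed in pairs from a common primary transcript. In mice the locus of miR-424 and miR-503, where miR-424 is called miR-322, is known for its part in the regression of the mammary gland after lactation.

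The pairs could be read from the order of genes in RefSeq, assembly ARS-UCD2.0. MIR15A lay next to MIR16A inside a transcribed pseudogene. MIR15B lay next to MIR16B inside SMC4, a gene of the condensin complex that packs chromosomes before cell division. MIR195 lay next to MIR497 inside a long non-coding RNA. MIR503 lay next to MIR424, close to MIR542 and MIR450A-2. The deposited table rests on another assembly, ARS-UCD1.2, so the neighbours are given without positions.

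Levels are given in the authors' TPM, the reads of a miRNA scaled to a common total of miRNA reads with no correction for length. The reads implied by the values ranged from 6026620 to 23577193 in a library. Their median was 10732360 for the lactation libraries and 21207957 for the others. These totals count a read at each precursor that holds it, and with 1 precursor for each of the 388 miRNAs they were 4694211 to 17685035. A count of 3 reads corresponded to between 0.127 and 0.498 TPM, a floor that covers counting error only. LD replicate 2 stood apart in the sum of 3 erythroid markers (miR-451, miR-144 and miR-486). They summed to 6127 TPM there and to between 413 and 2041 TPM in the other 11 libraries. miR-451 and miR-486 were at 2607 and 3416 TPM in LD replicate 2, while miR-144 was at 103 TPM, close to the 90.3 TPM of LP replicate 3. Epithelial markers, the miR-200 group with miR-205, were all measured and summed to between 14978 and 44371 TPM. In bulk tissue, fewer cells of a type and less RNA per cell cannot be told apart.

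The family took a small share of the summed TPM of all entries, between 0.615% and 1.31% in a library. With 1 precursor each, the 388 miRNAs make up 74.5% to 84.9% of that sum. The share of the family among miRNA reads counted once is therefore higher. The summed level of the family was 8466 ± 2387 TPM in lactation (mean ± SD, n = 6) and 11252 ± 1301 TPM outside lactation (n = 6), and the ranges overlapped. Over the 12 libraries miR-16b held the highest mean, 3189.9 ± 1316 TPM, which was rank 37 among the 388 miRNAs. miR-16a followed with 2564 ± 941 TPM, miR-195 with 1614 ± 586 TPM, miR-497 with 1562 ± 686 TPM and miR-15a with 799 ± 267 TPM. miR-15b stood at 124 ± 54.0 TPM. Neighbours in this order overlapped in their ranges, apart from miR-15a and miR-15b and from miR-15b and the miR-503 arms. The arms of miR-503 were lowest, with 3.85 ± 2.35 TPM for miR-503-3p and 1.15 ± 1.27 TPM for miR-503-5p, of which the latter was close to the depth limit.

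**Figure D1:**
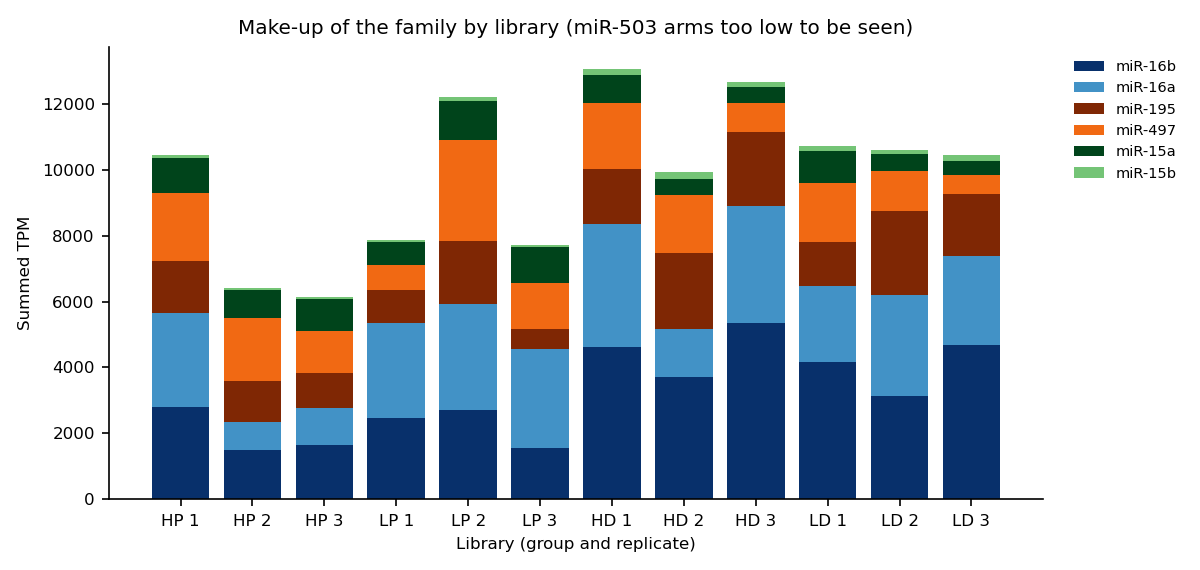
Summed TPM of the family in each of the 12 libraries (group and replicate on the horizontal axis), stacked by member. The sum runs from 6155 TPM in HP replicate 3 to 13086 TPM in HD replicate 1, and the miR-16b segment (darkest blue) is taller in all 6 non-lactating libraries than in any lactation library.

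The family was first compared between lactation and the non-lactating period. miR-15b and miR-16b, the SMC4 pair, were lower in lactation, and miR-15a was higher in lactation. The other 5 members did not pass the test. Over all 388 miRNAs, 165 (42.5%) differed between the stages at an adjusted p under 0.05 (limma over all 12 libraries with phenotype as a covariate, Benjamini-Hochberg adjustment), so that 3 of 8 members is a share close to this background. 86 miRNAs (22.2%) were higher in lactation, as was 1 member, and 79 (20.4%) were lower, as were 2 members. The median log2 difference was -0.57 over the members and -0.01 over all miRNAs. Without size factors 142 miRNAs passed, 59 of them higher and 83 lower.

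miR-15b, the less abundant partner of the SMC4 pair, was at 93.1, 65.8 and 86.9 TPM in HP and at 61.4, 109.5 and 59.3 TPM in LP. In the non-lactating period it was at 183, 221 and 161 TPM in HD and at 169, 116 and 165 TPM in LD. All 6 lactation libraries lay below all 6 non-lactating libraries, also after normalization. The fitted difference, lactation minus non-lactating, was -0.99 on the log2(normalized TPM + 1) scale (SE 0.21, 95% interval -1.44 to -0.53, limma adjusted p = 0.00208), and the exact two-sided permutation test of 6 against 6 gave p = 0.00216. It passed the threshold in each of the 20 alternatives tried, with log2 differences from -1.09 to -0.87.

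miR-16b, transcribed with miR-15b, was at 2802, 1482 and 1641 TPM in HP and at 2451, 2702 and 1549 TPM in LP. It was at 4617, 3704 and 5336 TPM in HD and at 4168, 3142 and 4685 TPM in LD. The deposited values of the stages did not overlap, while the normalized values did, since LP replicate 1 then stood at 3045 and LD replicate 1 at 2779. The difference was -0.95 (SE 0.26, 95% interval -1.51 to -0.38, limma adjusted p = 0.0101), and the exact permutation test gave p = 0.00866. This member too passed in each of the 20 alternatives, with log2 differences from -1.08 to -0.81.

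miR-15a, which has the same seed as miR-15b but comes from the locus of miR-16a, went the other way. It was at 1069, 849 and 957 TPM in HP and at 679, 1195 and 1077 TPM in LP. It was at 859, 474 and 478 TPM in HD and at 969, 539 and 445 TPM in LD. The deposited values overlapped because HD replicate 1 and LD replicate 1 were high. Both of these libraries had a size factor of 1.50, and after normalization the 6 lactation libraries lay above the 6 others. The difference was 0.79 (SE 0.16, 95% interval 0.44 to 1.13, limma adjusted p = 0.00159), and the exact permutation test gave p = 0.00216. Its adjusted p rose to 0.0480 without size factors, where the difference was 0.68.

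The count of miRNAs whose stages do not overlap was 59 of 388 (15.2%) on deposited TPM, with miR-15b and miR-16b among them. It was 85 of 388 (21.9%) on normalized values, with miR-15a and miR-15b among them.

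miR-16a, the partner of miR-15a, did not pass between the stages. Its difference was -0.27 (95% interval -1.07 to 0.53, limma adjusted p = 0.588). miR-195 was at 1573, 1241 and 1047 TPM in HP, at 1013, 1933 and 621 TPM in LP, at 1662, 2309 and 2224 TPM in HD and at 1336, 2542 and 1873 TPM in LD. Its difference was -0.63 (95% interval -1.36 to 0.10, limma adjusted p = 0.148), and it passed the threshold without size factors and without LD replicate 1, with adjusted p of 0.0418 and 0.0358. Its partner miR-497 was at 2057, 1907 and 1288 TPM in HP, at 768, 3059.8 and 1413 TPM in LP, at 2003, 1784 and 905 TPM in HD and at 1785, 1211 and 563 TPM in LD. Its difference was 0.46 (95% interval -0.14 to 1.06, limma adjusted p = 0.206). The libraries of both stages overlapped for miR-16a, for miR-195 and for miR-497.

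**Figure D2:**
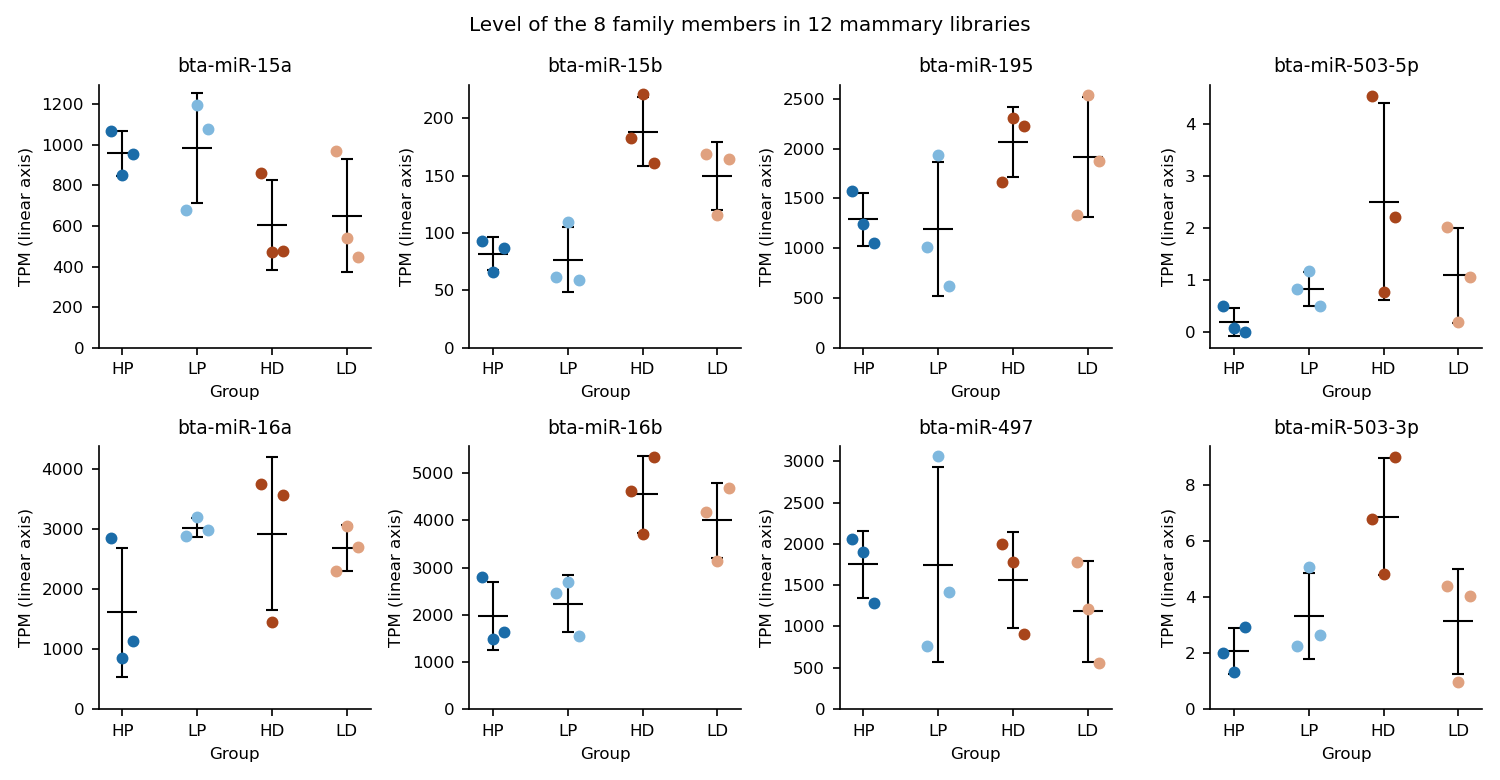
TPM of each member (vertical axis, linear, own scale per panel) by group, with a point per library and the mean ± SD of 3 libraries in black. Each column holds the members of 1 locus. miR-15b and miR-16b sit higher in HD and LD than in HP and LP without overlap, and miR-16a in HP is split between 1 library at 2848 TPM and 2 libraries at 860.1 and 1131 TPM.

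Single markers of several cell types also differed between the stages, as did 165 of all 388 miRNAs (42.5%). 4 of 6 epithelial markers and 2 of 2 endothelial markers (both arms of miR-126) were higher in lactation. 2 of 5 leukocyte markers and 2 of 4 markers of fibroblasts and other stroma were lower in lactation, shares near this background. None of 3 erythroid and none of 4 muscle markers passed. Of the epithelial, leukocyte and stromal markers that did not pass, miR-205 (-0.08), miR-150 (0.34), miR-223 (0.13) and miR-199a-5p (0.42) went against their lists. miR-200b (0.65), miR-142-3p (-0.48) and miR-199b (-0.06) went with them. The summed epithelial markers ranged from 34301 to 44371 TPM in lactation and from 14978 to 38785 TPM in the non-lactating period. The summed leukocyte markers ranged from 5146 to 8911 TPM in lactation and from 8262 to 20486 TPM in the non-lactating period. The upper end was LD replicate 1 alone, and the next highest library was LD replicate 3 at 11209 TPM. The part of these cell types in the differences of the family was not tested.

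The ratio of 2 members within a library does not depend on the scaling of that library. These ratios are given as a description, and no share over other pairs of miRNAs was computed. miR-15a and miR-15b already lay apart by stage after normalization, in opposite directions, so their ratio restates those differences. The ratio of miR-15a to miR-15b was between 10.9 and 18.2 in the 6 lactation libraries and between 2.14 and 5.75 in the 6 non-lactating libraries, with no overlap. It was 11.5, 12.9 and 11.02 in HP and 11.1, 10.9 and 18.2 in LP, against 4.69, 2.14 and 2.96 in HD and 5.75, 4.67 and 2.70 in LD. In contrast, the ratio of miR-16b to miR-15b, the SMC4 pair, had a geometric mean of 26.3 in lactation and 25.4 outside it, with a range of 16.8 to 39.9 over the 12 libraries.

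The ratios of the other pairs varied more between libraries. The SD of the log2 ratio over the 12 libraries was 0.34 for the SMC4 pair. It was 0.88 for miR-16a over miR-15a and 0.89 for miR-195 over miR-497. miR-16a over miR-15a ranged from 1.01 in HP replicate 2 to 7.47 in HD replicate 3. miR-195 over miR-497 ranged from 0.440 in LP replicate 3 to 3.33 in LD replicate 3, and exceeded 1 in 1 of 6 lactation libraries and 4 of 6 non-lactating libraries. The correlations of log2 levels over the 12 libraries, which share stage and group differences, were 0.87 for miR-15b with miR-16b, 0.07 for miR-15a with miR-16a and -0.04 for miR-195 with miR-497. Computed on deviations from the group means they were 0.72, 0.51 and 0.22. miR-15a and miR-15b had a correlation of -0.82 over the 12 libraries and of -0.25 on deviations from the group means.

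**Figure D3:**
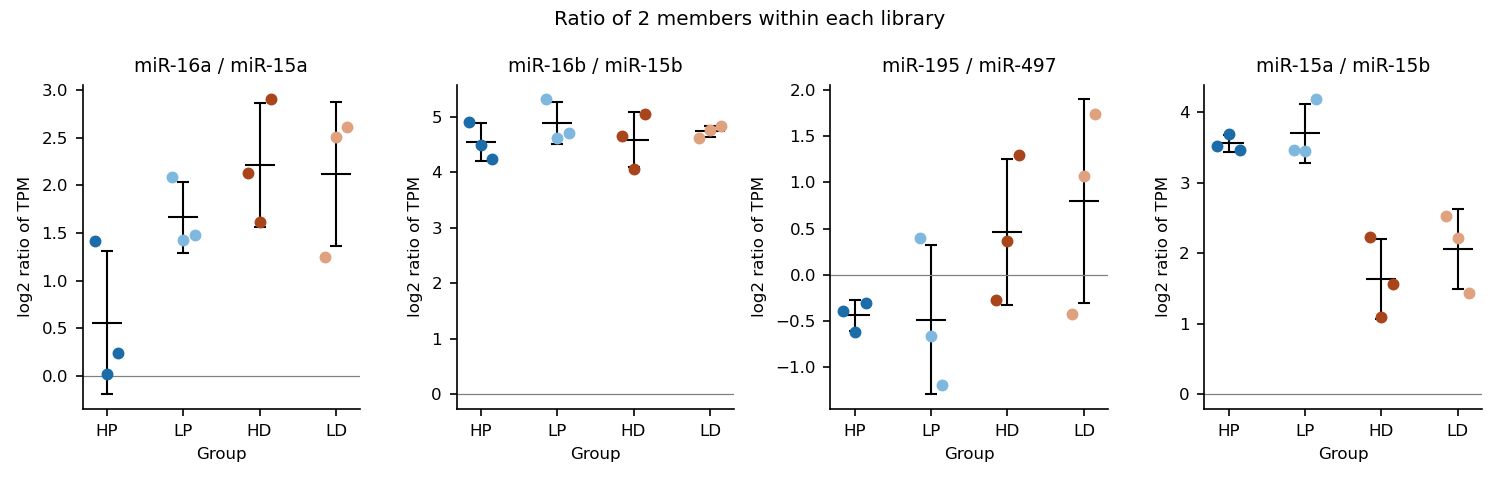
Log2 ratio of TPM of 2 members within each library (vertical axis, own scale per panel) by group, with a point per library and the mean ± SD of 3 libraries in black. The ratio of miR-15a to miR-15b is at 3.45 or more in all lactation libraries and at 2.52 or less in all non-lactating libraries, while miR-16b over miR-15b stays between 4.07 and 5.32 throughout.

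HP vs. LP asked whether the family differs between lactating cows of high and of low milk protein percentage. miR-16a was the only member among the DE miRNAs, and it was higher in the libraries labelled LP. By the study's rule, a DE miRNA has an unadjusted p under 0.05 and changes by more than 0.8 on the log2 scale in either direction. The study applied this rule to DESeq2 on counts. Here it was applied to limma on log2(normalized TPM + 1), so the calls can differ from those of the study. 39 of 388 miRNAs (10.1%) were DE by this rule, 23 (5.93%) higher and 16 lower in LP, and 1 miRNA passed an adjusted p of 0.05, so 1 of 8 members is near the background. With scaling by the 75th percentile, which moved the median of all miRNAs from -0.01 to -0.15, 14 were higher and 28 lower, and miR-16a was 0.98 higher in LP and still DE.

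miR-16a was at 2848, 860.1 and 1131 TPM in HP and at 2884, 3208 and 2994 TPM in LP. HP replicate 1 was close to the LP libraries, and HP replicates 2 and 3 were far below them. The deposited values did not overlap, as for 67 of 388 miRNAs (17.3%). The normalized values did overlap, with HP replicate 1 at 2976 and LP replicate 2 at 2799. No member was among the 77 miRNAs (19.8%) whose normalized values did not overlap. The log2 difference, LP minus HP, was 1.14 (SE 0.42, 95% interval 0.21 to 2.07, unadjusted p = 0.0215, limma adjusted p = 0.251). The exact permutation test gave p = 0.3, where 3 libraries against 3 cannot give less than 0.1. The call was lost without HP replicate 2 (0.81), without HP replicate 3 (0.92) and without LP replicate 1 (1.06), with adjusted p of 0.553, 0.509 and 0.512. Without HP replicate 1 the difference was 1.69, with an adjusted p of 0.00358.

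miR-16b has nearly the same mature sequence as miR-16a, apart from its 3′ end, so how reads were divided between them is uncertain. Its difference in HP vs. LP was 0.23 (95% interval -0.54 to 1.00, limma adjusted p = 0.852). The ratio of miR-16b to miR-16a was 0.98, 1.72 and 1.45 in HP and 0.85, 0.84 and 0.52 in LP. The groups did not overlap, which chance alone gives with a probability of 0.1 for 3 libraries against 3. The share over other pairs of miRNAs was not computed. This ratio was above 1 in all 6 non-lactating libraries. The ratio of miR-16a to miR-195 was 1.11 in HP and 2.83 in LP as a geometric mean, with ranges of 0.693 to 1.81 and 1.66 to 4.82 that overlapped.

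miR-16 is also an abundant miRNA of red blood cells. Among the erythroid markers miR-451 and miR-144 were DE and higher in LP, and miR-486 was not DE. The 3 markers summed to 781, 1143 and 1378 TPM in HP and to 2041, 1126 and 1806 TPM in LP. HP replicate 1, where miR-16a was highest in its group, had the lowest erythroid sum of the lactation libraries. LD replicate 2, where erythroid markers stood at 6127 TPM, held miR-16a at 3059.9 TPM, within the range of the other non-lactating libraries (1451 to 3750.2 TPM). After normalization over all 12 libraries it was the highest of them at 4007, with HD replicate 3 next at 3834. Of 4 muscle markers only miR-143 was DE, and it was higher in LP. The others had log2 differences of 0.55 (miR-1), 0.13 (miR-133a) and -0.61 (miR-145). Of 5 leukocyte markers only miR-150 was DE, and it was lower in LP. The others were at 0.14 (miR-142-3p), -0.09 (miR-142-5p), 0.41 (miR-223) and 0.28 (miR-155). The part of these cell types in the difference of miR-16a was not tested beyond these values.

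The other 6 members besides miR-16a and miR-503-5p had unadjusted p over 0.05 in HP vs. LP, with log2 differences from -0.21 (miR-195) to 0.49 (miR-503-3p). Over the 8 members the median was 0.13, against -0.01 over all miRNAs.

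HD vs. LD asked the same in the non-lactating period. No member was DE in limma by the same rule. DE calls numbered 13 of 388 miRNAs (3.35%), with 8 higher and 5 lower in LD. 19 miRNAs had an unadjusted p under 0.05 and none passed the adjustment in limma. Without size factors, which moved the median of all miRNAs from 0.03 to -0.16, 3 were DE and all were lower in LD. The log2 differences of the members, LD minus HD, ran from -0.87 (miR-503-3p) to 0.32 (miR-15a), with a median of -0.03. miR-16a, at 3750.2, 1451 and 3575 TPM in HD and at 2301, 3059.9 and 2707 TPM in LD, had a difference of 0.23 with a 95% interval from -0.997 to 1.45. HD replicate 2 was the low library, and the groups overlapped. A difference of the size seen in lactation lies inside this interval.

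**Figure D4:**
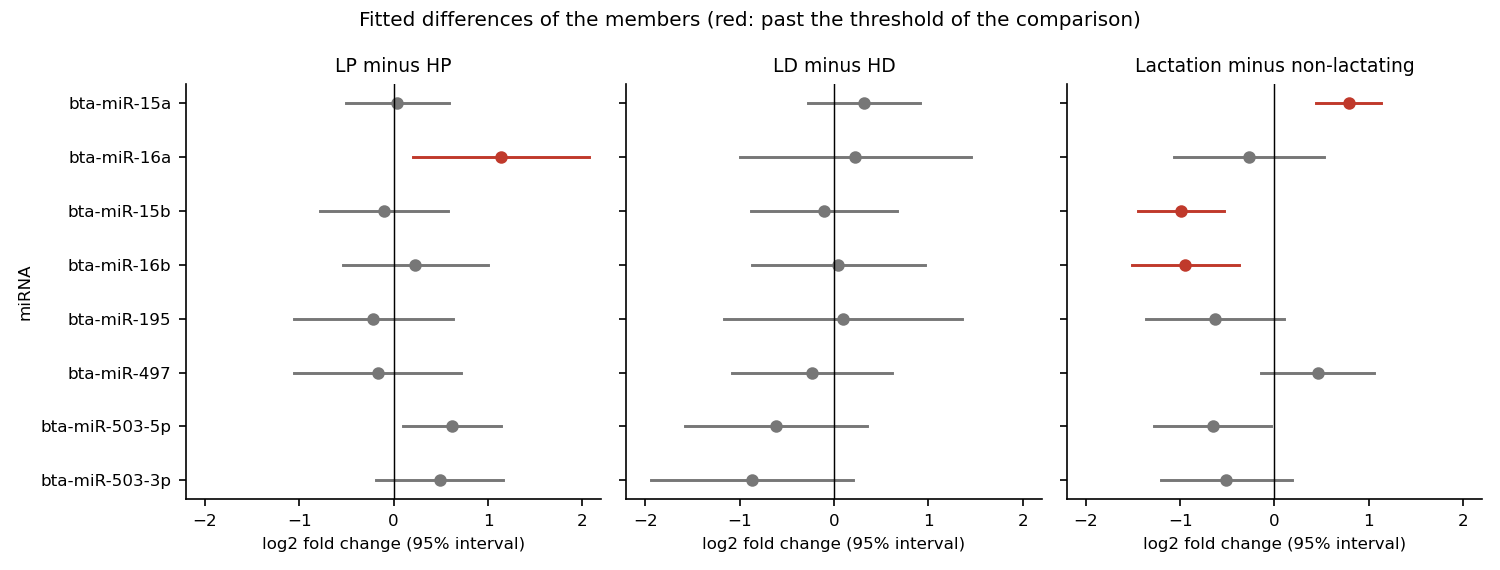
Log2 fold change of each member with its 95% interval (horizontal axis, log2(normalized TPM + 1) scale) in HP vs. LP, HD vs. LD and lactation against the non-lactating period. Red marks members past the threshold of that comparison, which are miR-16a in the first panel, none in the second, and miR-15a, miR-15b and miR-16b in the third.

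The miR-503 precursor gave reads from both arms, and miR-503-3p was above miR-503-5p in 12 of 12 libraries. miR-503-5p is the arm that carries the family-related seed. Its implied reads were 3, 1 and 0 in HP, 11, 13 and 4 in LP, 50, 17 and 52 in HD and 29, 4 and 22 in LD, so that 3 of 12 libraries were at or under the floor of 3 reads. In TPM this was 0.50, 0.08 and 0 in HP, 0.82, 1.16 and 0.50 in LP, 4.53, 0.77 and 2.21 in HD and 2.02, 0.19 and 1.05 in LD. miR-503-3p was at 1.99, 1.31 and 2.93 TPM in HP, 2.24, 5.07 and 2.65 TPM in LP, 6.79, 4.81 and 8.99 TPM in HD and 4.40, 0.98 and 4.02 TPM in LD, from 12 to 212 implied reads. Both arms were highest in HD by group mean. The correlation of the arms was 0.77 over the 12 libraries and 0.53 on deviations from the group means.

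In HP vs. LP, miR-503-5p had a log2 difference of 0.62 (95% interval 0.10 to 1.14, unadjusted p = 0.0242, limma adjusted p = 0.251), which is under the fold change that the DE rule asks for. The fold of a miRNA at this level rests on the pseudocount, and with a pseudocount of 0.1 in place of 1 it was 2.00 and passed the rule. It also passed the rule without HP replicate 1 (0.80). In HD vs. LD the deposited miR-503-3p values did not overlap, as for 28 of 388 miRNAs (7.22%), while no member was among the 40 miRNAs (10.3%) without overlap after normalization. Its difference was -0.87 (95% interval -1.94 to 0.20, unadjusted p = 0.0967, limma adjusted p = 0.993), and it was DE without LD replicate 3 (-1.25). miR-503-5p had a difference of -0.62 (95% interval -1.58 to 0.35) and was DE without HD replicate 2 (-1.0).

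Between the stages neither arm passed, with differences of -0.51 for miR-503-3p and -0.66 for miR-503-5p (limma adjusted p of 0.224 and 0.0791). Both passed without LD replicate 2, the library with high erythroid markers, at -0.75 and -0.87 (adjusted p of 0.0467 and 0.0163).

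Whether the difference between low and high groups depends on the stage was tested by the interaction, (LP minus HP) minus (LD minus HD), over all 12 libraries. No miRNA (0 of 388, 0%) passed an adjusted p of 0.05 in limma. An unadjusted p under 0.05 was found for 20, about the number that this threshold gives by chance alone. The arms of miR-503 were among these 20, with 1.35 for miR-503-3p (95% interval 0.16 to 2.55, unadjusted p = 0.0297, adjusted p = 0.782) and 1.22 for miR-503-5p (95% interval 0.16 to 2.27, unadjusted p = 0.0268, adjusted p = 0.782). For miR-16a it was 0.93 (95% interval -0.65 to 2.51, adjusted p = 0.963), so the differences of miR-16a in the 2 stages were not shown to differ. The other 5 members lay between -0.30 and 0.20.

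Of the 4 other miRNAs looked for at the locus of miR-424 and miR-503, 3 were in the table, miR-450a, miR-450b and miR-542-5p, all below 26 TPM. miR-450a was lower in lactation (-0.57, limma adjusted p = 0.0358), miR-542-5p missed the threshold (-0.69, adjusted p = 0.0544), and miR-450b was at -0.05. In HD vs. LD miR-542-5p was DE and lower in LD (-0.89, unadjusted p = 0.0486, limma adjusted p = 0.993), and none was DE in HP vs. LP. miR-542-5p had 25.4, 9.76 and 14.1 TPM in HD and 9.49, 4.14 and 7.03 TPM in LD, where HD replicate 2 and LD replicate 1 were close. It was the miRNA most like miR-503-3p over the 12 libraries (r = 0.77) and the second most like miR-503-5p (r = 0.86). On deviations from the group means these correlations were lower, at 0.51 and 0.75.

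miR-103 and miR-107 carry a seed that is the family seed shifted by 1 base, and both were higher in lactation, as miR-15a was. Their differences were 1.06 and 0.79 (limma adjusted p of 0.00019 and 0.00591), and neither was DE between the high and low groups of either stage.

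The miRNAs most like each member over the 12 libraries, by Pearson correlation of log2(normalized TPM + 1), were in most cases from outside the family. For miR-15a they were miR-29c (r = 0.96), miR-126-3p (0.93), miR-190a (0.93), miR-30b-5p (0.92) and miR-29b (0.92). On deviations from the group means these were lower, at 0.79, 0.52, 0.61, 0.78 and 0.39 in the same order. For miR-15b they were led by miR-361 (0.97), miR-455-3p and miR-181d (0.92 each). miR-361 also led for miR-16b (0.92), followed by miR-155 (0.90), and miR-15b was among the 5 (0.87). For miR-16a they were miR-24-3p (0.94), miR-26b (0.92) and miR-152 (0.91), with much the same correlations on deviations from the group means (0.92, 0.91 and 0.92). miR-26a was first for miR-195 (0.85), miR-483 for miR-497 (0.83) and miR-487a for miR-503-5p (0.86). These values describe likeness across the same libraries, whose stages and scaling they share.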

How the data were processed

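Small RNA of mammary biopsies was sequenced in 12 cows, in 4 groups of 3 taken from the labels. The authors trimmed reads with Cutadapt 2.8 and Trimmomatic 0.36, kept 18 to 30 nt, used Bowtie 1.1.1 against ARS-UCD1.2 (1 mismatch), and counted miRNAs of miRBase 22.0 with miRDeep2. The authors deposited 426 entries in RPM, which they call TPM, and each library sums to between 999952 and 999976. A read may be counted at each precursor of a mature miRNA. Depth was inferred from the value of 1 read, of which all values were whole multiples within 0.006 TPM. Each library holds too few low values to settle this more strictly, so read numbers are estimates and no count test was run.

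Of several precursors the highest by mean stood for its mature miRNA (388 miRNAs). Values were scaled by size factors (median of ratios) of the libraries in each fit, and log2 was taken after adding 1. limma 3.58.1 (R 4.3.3, empirical Bayes with trend) was fitted over all 388 miRNAs, within a stage for the phenotype comparisons and over all 12 libraries otherwise. It was tested on simulated data, in which 200 of the 388 miRNAs changed by 1 or by 2 on the log2 scale. Of changes of 1, 61.0% were recovered in HP vs. LP, 66.0% in HD vs. LD and 77.5% between the stages. For the interaction only 19.0% were recovered. An adjusted p passes more easily where many miRNAs change, so this share may be lower in data with few changes. Exact permutation tests used scipy 1.17.1. Alternatives were no size factors, scaling by the 75th percentile (chosen after seeing the data), pseudocounts of 0.1 and 5, a mean of at least 10 TPM, no trend, all 426 entries, a block for the replicate number, 1 fit of all 12 libraries, and leaving out each library.

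The 8 members were taken by name and given in every library, and miRNAs of the locus of miR-424 and miR-503, miRNAs of a shifted seed, cell type markers and the 5 miRNAs most correlated with each member were named by rule. Members and lists were chosen with earlier results of these data known. Sequences and positions were not used here. p-values measure the spread between cows.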

Additional observations from a re-analysis of the deposited data

Results flagged for a closer look

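Among the 8 members, both arms of miR-503 had an unadjusted p under 0.05 for the interaction, the test of whether low and high groups compare differently in the 2 stages. Over all miRNAs 20 of 388 had such a p, about the 1 in 20 that chance alone gives. The difference of differences, LP minus HP against LD minus HD, was 1.35 for miR-503-3p and 1.22 for miR-503-5p on the log2 scale. miR-503-3p was at 0.49 for LP minus HP and at -0.87 for LD minus HD, and miR-503-5p was at 0.62 and at -0.62. Neither passed the adjustment over all miRNAs (limma adjusted p = 0.782 for each), and the arms share a precursor, so they are not independent. In the 16 sets of 6 libraries (8 members in each stage), no library stood far enough from the others on TPM to pass Dixon's test, where chance alone gives about 1 in 20.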

How the results depend on the processing

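The stage calls of miR-15a, miR-15b and miR-16b held in each of 20 alternatives. The members called between the stages were 3, and 4 without size factors. In HP vs. LP the count of DE miRNAs fell from 39 to 22 with a pseudocount of 5 and, with a library left out, lay between 24 (LP replicate 1 left out) and 53 (HP replicate 1 left out), and the members called ranged from 0 to 2, with 2 at a pseudocount of 0.1. In HD vs. LD the count fell from 13 of 388 to 3 without size factors and to 7 with a pseudocount of 5. At a mean of at least 10 TPM it was 8 of the 230 miRNAs that pass this filter. With a library left out it ranged from 6 (without HD replicate 2) to 36 (without LD replicate 1), with 8 without LD replicate 2 and with 0 to 1 members. With a library left out, 3 to 5 members were called between the stages beside 143 to 179 of all 388 miRNAs, and the 5 (without LD replicate 2) stood beside 171.

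The main fits did not pair cows by replicate number. Deviations from the group means correlated at -0.20, -0.26 and 0.01 for HP with LP and at 0.55, -0.11 and 0.50 for HD with LD. Of 6 pairs, 2 were best matched to their own number, replicates 1 and 3 of HD with LD. Whether these libraries share a factor was not tested. With the replicate number as a block, 34, 17 and 171 miRNAs were called in HP vs. LP, HD vs. LD and between the stages, and 0 for the interaction. 1 member, miR-503-3p, was then called in HD vs. LD.

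Differences that were not called could change sign. In HP vs. LP, leaving out a library gave -0.036 to 0.17 for miR-15a, -0.29 to 0.064 for miR-15b, -0.55 to 0.19 for miR-195 and -0.59 to 0.19 for miR-497. In HD vs. LD it gave -0.35 to 0.15 for miR-15b, -0.19 to 0.69 for miR-16a, -0.25 to 0.36 for miR-16b, -0.31 to 0.68 for miR-195 and -0.51 to 0.061 for miR-497. For the interaction it gave -0.22 to 0.25 for miR-15b, -0.11 to 0.52 for miR-16b, -0.87 to 0.10 for miR-195 and -0.32 to 0.43 for miR-497. Scaling by the 75th percentile, chosen after seeing the data, turned miR-15a in HP vs. LP (-0.13) and the interactions of miR-15b (-0.12) and miR-497 (-0.059). Without size factors, miR-16a (-0.01), miR-16b (-0.19) and miR-195 (-0.14) turned in HD vs. LD, and a mean of at least 10 TPM turned the interaction of miR-15b (-0.054). The cause was not tested. Planned count-based tests and TMM scaling were not run, and the filter on the mean removed both arms of miR-503.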
